A study of Homo sapiens with 8 samples.

Results

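Fibroblast growth factors (FGFs) and their receptors were examined in lists of chromatin immunoprecipitation (ChIP) peaks from neural progenitor cells. The 10 genes were chosen by name as members of the family: the receptors FGFR1, FGFR2 and FGFR3, the secreted ligands FGF2, FGF8, FGF9 and FGF18, and the long genes FGF12, FGF13 and FGF14. The annotation used holds 19821 protein-coding genes on the autosomes and X, and all 10 were found in it. The starting material was H9, an established line of human embryonic stem cells, which was infected with lentivirus, selected with puromycin and then induced to neural progenitors. The control group (NC) carried a control lentivirus, and the knockdown groups carried a short hairpin RNA against KDM2A, named sh1 or sh4. H3K36me2, a dimethyl mark on a lysine of histone H3, was precipitated from NC, sh1 and sh4 cells, and KDM2A from NC cells only. The series has 8 libraries, of which the 4 immunoprecipitates come with a peak list and are used here.

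Each group held 1 library, so no value has a spread between cultures, no test between groups was possible, and intervals cover counting error only. Both hairpins were read against the same control library. The H3K36me2 lists held 19691 regions in NC, 19501 in sh1 and 21493 in sh4, and the median region held 151 to 162 ChIP reads and 89 to 99 input reads. In the KDM2A list the 504724 peaks had a median fold enrichment of 2.33, and 3.08% of those on the chromosomes used had a false discovery rate (FDR) under 0.05. Its depth is unknown beyond the pileup of each peak. The lists hold no RNA, so neither the neural progenitor markers nor the level of KDM2A after knockdown could be checked here.

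Secreted FGFs bind receptor tyrosine kinases of the FGFR family together with heparan sulfate, and the receptors pass the signal through the adaptor FRS2 to the MAPK cascade. In neural tissue FGF2 and FGF8 are known for keeping progenitors dividing and for patterning the early brain. FGF12, FGF13 and FGF14 belong to the FGF homologous factors, which stay inside the cell and bind the tails of voltage-gated sodium channels. KDM2A removes methyl groups from H3K36me2 and binds unmethylated CpG dinucleotides through a CXXC zinc finger.

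Because KDM2A reads CpG, the promoters of the genes that differ in KDM2A position are shown with every CG in capitals. RefSeq promoter sequences of GRCh38.p14, 250 bases before to 50 bases after a listed start, were matched for 7 of the 10 genes (FGFR2, FGFR3, FGF2, FGF18, FGF12, FGF13 and FGF14). FGFR1, FGF8 and FGF9 had no entry in the table used. CG reads the same on both strands. The median of 34961 listed promoters was 14 CG.
FGFR3 (chr4:1793043-1793342, plus strand): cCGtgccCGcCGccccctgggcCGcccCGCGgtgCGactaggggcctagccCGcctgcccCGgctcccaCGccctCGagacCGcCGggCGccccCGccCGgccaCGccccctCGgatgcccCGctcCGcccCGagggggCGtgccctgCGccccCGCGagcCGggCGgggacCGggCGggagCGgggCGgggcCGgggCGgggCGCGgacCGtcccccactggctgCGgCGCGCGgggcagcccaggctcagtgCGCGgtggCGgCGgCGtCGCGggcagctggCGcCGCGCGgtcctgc
FGF2 (chr4:122826581-122826880, plus strand): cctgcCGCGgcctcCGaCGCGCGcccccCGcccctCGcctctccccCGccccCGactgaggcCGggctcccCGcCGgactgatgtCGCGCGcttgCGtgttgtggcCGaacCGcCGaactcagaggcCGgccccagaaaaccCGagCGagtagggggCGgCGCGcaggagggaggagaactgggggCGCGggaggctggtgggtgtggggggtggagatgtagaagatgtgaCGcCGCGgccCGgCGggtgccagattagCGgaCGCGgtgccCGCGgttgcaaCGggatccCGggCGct
FGF18 (chr5:171419397-171419696, plus strand): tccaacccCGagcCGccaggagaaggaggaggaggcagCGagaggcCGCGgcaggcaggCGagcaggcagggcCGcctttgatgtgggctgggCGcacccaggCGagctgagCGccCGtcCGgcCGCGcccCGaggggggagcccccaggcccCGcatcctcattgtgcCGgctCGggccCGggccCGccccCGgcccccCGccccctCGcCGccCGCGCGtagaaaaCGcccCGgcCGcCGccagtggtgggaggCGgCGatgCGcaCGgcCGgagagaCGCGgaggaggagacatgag
FGFR2, the start nearest a KDM2A peak (chr10:121596596-121596895, minus strand): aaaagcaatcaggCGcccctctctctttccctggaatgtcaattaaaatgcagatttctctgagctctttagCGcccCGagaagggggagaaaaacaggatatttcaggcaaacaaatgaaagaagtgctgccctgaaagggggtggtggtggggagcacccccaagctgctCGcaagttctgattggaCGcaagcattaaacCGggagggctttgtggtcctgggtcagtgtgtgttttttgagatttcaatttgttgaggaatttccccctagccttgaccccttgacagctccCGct
FGF13, outermost start (chrX:139204974-139205273, minus strand): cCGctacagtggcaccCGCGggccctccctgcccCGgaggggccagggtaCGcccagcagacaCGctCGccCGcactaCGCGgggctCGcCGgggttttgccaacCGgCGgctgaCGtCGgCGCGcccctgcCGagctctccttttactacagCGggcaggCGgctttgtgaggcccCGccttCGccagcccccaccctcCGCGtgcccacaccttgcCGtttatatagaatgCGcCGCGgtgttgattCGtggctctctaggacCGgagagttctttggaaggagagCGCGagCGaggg
FGF14, outermost start (chr13:102402394-102402693, minus strand): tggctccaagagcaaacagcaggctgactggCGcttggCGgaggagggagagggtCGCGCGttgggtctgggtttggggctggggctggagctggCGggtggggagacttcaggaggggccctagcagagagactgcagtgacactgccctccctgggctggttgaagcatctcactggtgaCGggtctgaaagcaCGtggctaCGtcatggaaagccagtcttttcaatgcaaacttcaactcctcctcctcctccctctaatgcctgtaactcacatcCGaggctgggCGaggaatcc
FGF14, innermost start (chr13:101916896-101917195, minus strand): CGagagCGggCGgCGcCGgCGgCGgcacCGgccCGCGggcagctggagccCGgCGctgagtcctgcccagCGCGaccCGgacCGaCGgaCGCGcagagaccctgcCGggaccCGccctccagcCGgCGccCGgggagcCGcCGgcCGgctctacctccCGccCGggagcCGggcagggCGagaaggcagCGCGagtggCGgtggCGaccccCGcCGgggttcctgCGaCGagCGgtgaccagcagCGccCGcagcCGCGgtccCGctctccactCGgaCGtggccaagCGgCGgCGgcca

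The FGFR3 window held 51 CG, a number that 1.01% of listed promoters reached. The FGF2 window held 41 (reached by 6.72%) and that of FGF18 38 (9.94%). All 3 were thus richer in CG than most promoters, and each had a KDM2A peak within 1 kb of its start. The FDR of these peaks was 0.186 at FGFR3, 0.547 at FGF2 and 0.437 at FGF18. Over all genes with a listed start, 66.1% had a peak within 2 kb of it. The share within 1 kb is not given here, so these 3 genes are not set apart by it. Windows rich in CG also occurred without a peak within 1 kb. The outermost FGF13 window held 34 CG (15.6%) with its nearest KDM2A peak 3044 bp upstream. The outermost of the 5 FGFR2 starts held 52 CG (0.784%) with its nearest peak 1838 bp downstream, which is inside the 2 kb window. The only listed window of these genes that overlapped a KDM2A peak was the FGFR2 one above, with 7 CG (63.3%). Over all promoters, 19.3% overlapped a KDM2A peak, from 12.8% of those with 0 to 4 CG to 25.5% of those with 30 or more. Matches of these letters are a description, and no methylation data were used here.

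KDM2A lay within 2 kb of an annotated gene end at 8 of the 10 genes, near the 84% found over all protein-coding genes, so this count does not set the family apart. FGF13 and FGF14 were the exceptions, so that 1 of the 3 long genes had an end peak (86.3% of genes of at least 300 kb). None of the end peaks of the 10 genes had an FDR under 0.05, while 5.55% of all genes had such a peak. For genes whose start is listed, a peak lay at the start of 4 of 7 (66.1% of all such genes) and at the other end of 3 of 7 (58.9%).

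Among the receptors, which span the membrane and carry the kinase, FGFR3 had the highest KDM2A fold at an end. FGFR3 (gene 2261, chr4:1793293-1808867, plus strand) had a peak at chr4:1793937-1794603, 644 bp downstream of its start, with a fold of 2.83 and an FDR of 0.186. Its other end had a peak with a fold of 2.47 (FDR 0.413). FGFR2 (gene 2263, chr10:121478330-121598458, minus strand) had a peak at chr10:121596334-121596606 with a fold of 2.13 (FDR 0.63), 39 bp downstream of its second listed start. FGFR1 (gene 2260, chr8:38411143-38468635), whose strand was not listed in the tables used, had a peak across its high-coordinate end with a fold of 2.49 (FDR 0.333) and none at the other. The whole KDM2A list had a median fold of 2.33, and none of these folds reached 3.04, the limit of its 10% of highest fold.

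Each of the secreted ligands had at least 1 KDM2A peak at an end. FGF2 (gene 2247, chr4:122826682-122898236, plus strand), a broad mitogen for neural progenitors, had a peak 491 bp upstream of its listed start with a fold of 2.22 (FDR 0.547). FGF18 (gene 8817, chr5:171419647-171457626, plus strand), a ligand of skeletal and brain development, had one 498 bp downstream of its start with a fold of 2.33 (FDR 0.437) and one at its other end with a fold of 2.58 (FDR 0.297). FGF8 (gene 2253, chr10:101770109-101780369), the patterning signal of the midbrain-hindbrain border, had 5 end peaks, 4 at the low-coordinate end and 1 at the other, with a highest fold of 2.38 (FDR 0.437). FGF9 (gene 2254, chr13:21671073-21704498), a glia-activating ligand, had 1 peak beside its low-coordinate end with a fold of 2.08 (FDR 0.572). FGF8 and FGF9 had no listed strand.

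None of the 3 long intracellular genes had a KDM2A peak within 2 kb of its outermost start. The nearest peak lay 2156 bp downstream of the outermost start of FGF12 (gene 2257, chr3:192139390-192727541, minus strand), 3044 bp upstream of that of FGF13 (gene 2258, chrX:138614727-139205023, minus strand) and 2432 bp upstream of that of FGF14 (gene 2259, chr13:101710804-102402443, minus strand). All 3 distances are just past the 2 kb window, and with a 5 kb window all 10 genes had an end peak (96.7% of all genes). The only end peak of the 3 genes was at the downstream end of FGF12, with a fold of 2.99 (FDR 0.172), the highest end fold of the 10 genes. Each long gene did have a peak within 2 kb of an internal listed start. Over all genes with a listed start, 66.1% had a peak within 2 kb of the gene start. The share for internal starts is not given here, so this does not set the long genes apart. At the innermost FGF14 start, whose window above held 50 CG (reached by 1.30% of promoters), the peak at chr13:101916109-101916435 lay 510 bp downstream with a fold of 3.47 (FDR 0.0644). At the inner FGF12 start the nearest peak was 1354 bp away, and at the inner FGF13 start, whose window held 0 CG, 1286 bp away.

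In gene bodies, the long and the secreted FGF genes carried KDM2A peaks at densities whose counting intervals overlap. FGF12, FGF13 and FGF14 held 87, 83 and 90 peaks in bodies of 588, 590 and 692 kb. Together that was 13.9 peaks per 100 kb (95% exact Poisson interval 12.3 to 15.7). The secreted ligands held 25 peaks, or 16.3 per 100 kb (10.6 to 24.1), so the ratio of long to secreted was 0.852 (exact binomial interval 0.564 to 1.34). With 50 kb flanks the densities were 13.9 and 14.3 per 100 kb, a ratio of 0.975 (0.758 to 1.26). Long genes thus held more peaks, at no clearly different density.

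Counting all peaks, the receptors had a higher density over gene and flanks than both other classes. In bodies the summed density was also higher than in both, but the counting interval of the ratio excluded 1 against the long genes only. Over gene and flanks FGFR1 had 22.2 peaks per 100 kb, FGFR2 20.9 and FGFR3 24.2, together 22.1 (18.1 to 26.7). The ratio to the long genes was 1.59 (1.26 to 1.98) and to the secreted ligands 1.55 (1.15 to 2.09). In bodies the ratios were 1.64 (1.16 to 2.26) and 1.40 (0.836 to 2.38). The body of FGFR3 held 2 peaks, or 12.8 per 100 kb, below all 3 long genes, and its flanks 26 per 100 kb. The 3 receptors lie in the middle range of all protein-coding genes, whose median was 19.8 per 100 kb (quartiles 15.4 and 25), whereas all 3 long genes lay below the first quartile. Long genes in general were sparse: the 771 genes of at least 300 kb had a median of 15.5 per 100 kb over gene and flanks. In bodies alone 369 of these 771 genes had a lower density than FGF12, 331 a lower one than FGF13 and 268 a lower one than FGF14. Among the secreted ligands FGF2 had the lowest density of gene and flanks, 9.33 per 100 kb (5.33 to 15.1). FGF9 was at 13.5, FGF8 at 17.2 and FGF18 at 18.8. With an FDR under 0.05, gene and flanks held 1 peak at the receptors (493 kb). They held 10 at the long genes (2170 kb) and 3 at the secreted ligands (553 kb). A higher receptor density was thus not seen among these few peaks.

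**Figure D1:**
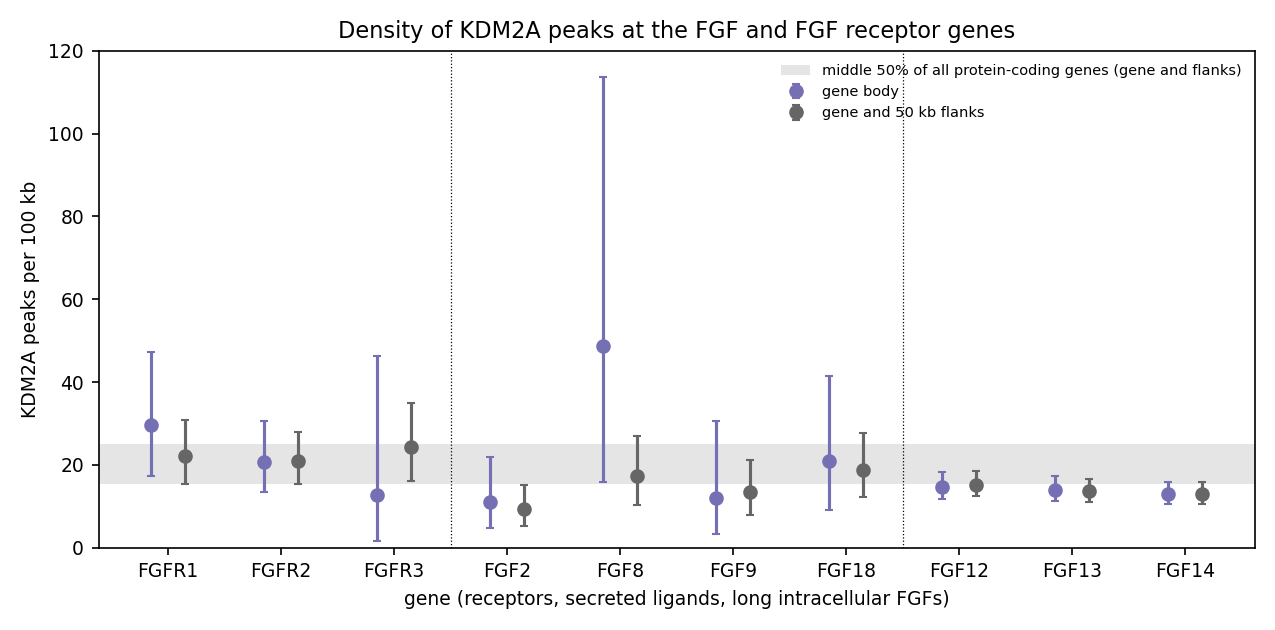
KDM2A peaks per 100 kb (vertical axis) in the gene body and in gene plus 50 kb flanks for each of the 10 genes, in 1 control library. Points are densities, bars 95% exact Poisson intervals for counting error, and the grey band the middle 50% of all protein-coding genes for gene and flanks. The receptors lie at 20.9 to 24.2 per 100 kb of gene and flanks and the long genes at 13.0 to 15.3. The wide bar of the FGF8 body rests on 5 peaks in 10.3 kb.

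The KDM2A peaks that passed an FDR of 0.05 lay more than 2 kb from the annotated ends. The nearest was 3.86 kb outside the downstream end of FGF14, inside the overlapping gene ITGBL1 (fold 3.63, FDR 0.0302). The 10 genes and their flanks held 14 of them, 8 in gene bodies, at 7 genes. Such a peak occurred in or within 50 kb of 56.6% of all genes and in the body of 20%, and in the body of 79.6% of genes of at least 300 kb. FGF12 had 4 in its body, the highest at chr3:192180816-192181302 with a fold of 4.10 (FDR 0.00591), 546 kb from its start. Another lay 46.8 kb upstream of FGF12 (fold 3.85, FDR 0.0118). FGF14 had 2 in its body, the higher at chr13:102014992-102015150 with a fold of 3.94 (FDR 0.00913), and 1 in each flank. FGF13 had 1, at chrX:139164410-139164726 with a fold of 3.12 (FDR 0.0462), though its body peak of highest fold was another one, 51.1 kb from the start (3.47, FDR 0.0644). FGFR2 had 1, at chr10:121490631-121491117, 12.5 kb inside its downstream end, with a fold of 3.12 (FDR 0.0462).

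The short ligands had no such peak in a body, and FGF2 had none in its flanks either. The highest body fold was 2.90 at FGF2, 2.52 at FGF8, 2.81 at FGF9 and 3.06 at FGF18, and among the receptors 2.96 at FGFR1 and 2.83 at FGFR3, where the body peak is the start peak. In flanks, FGF8 had 1 peak with an FDR under 0.05 located 18.3 kb outside its low-coordinate end (fold 3.75, FDR 0.0106), and FGF9 had 1 located 6.59 kb outside (fold 3.66, FDR 0.0202). FGF18 had 1 located 28.2 kb upstream, inside the neighbouring protein-coding gene, with a fold of 3.52, an FDR of 8.39e-05 and a pileup of 26. That pileup compares with 11 to 14 at the other 13 peaks.

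H3K36me2 regions lay mostly over the long genes and FGF2. In the control, 5 of 10 gene bodies held a region (FGFR2, FGF2, FGF12, FGF13 and FGF14), against 20% of all genes. In sh1 the bodies of FGF12, FGF13 and FGF14 held one (3 of 10, 16.2% of all genes), and in sh4 those of FGF2, FGF12 and FGF13 (3 of 10, 15.4%). Long genes hold regions more often in general: of genes of at least 300 kb, 87.8% had one in NC, 84.3% in sh1 and 80.8% in sh4. With flanks the count was 6 of 10 in NC (41.7% of all genes), 4 of 10 in sh1 (31%) and 4 of 10 in sh4 (28.7%). FGFR1, FGFR3, FGF8 and FGF18 held none in any library, as did 45.6% of all genes.

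Of 30 regions at the family in NC, 24 lay at the long genes, as did 17 of 21 in sh1 and 28 of 30 in sh4. The long loci, with flanks, made up 2170 of the 3217 kb examined. Region folds spanned 1.30 to 3.12 (NC), 1.40 to 2.77 (sh1) and 1.30 to 2.27 (sh4). The long loci were covered for 4.99% of their length in NC, 3.14% in sh1 and 6.45% in sh4. The secreted loci were covered for 2.91%, 3.09% and 2.10%, and the receptor loci for 3.61%, 0% and 0.689%. In the summed long loci sh1 was thus below and sh4 above the control, while receptor loci, of which only FGFR2 held regions, were below it in both. With only regions of a fold above the control's median of 1.59, the long loci were covered for 1.84% in NC, 2.14% in sh1 and 3.68% in sh4, so sh1 then lay above the control, and the receptor loci were at 0 in every library.

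**Figure D2:**
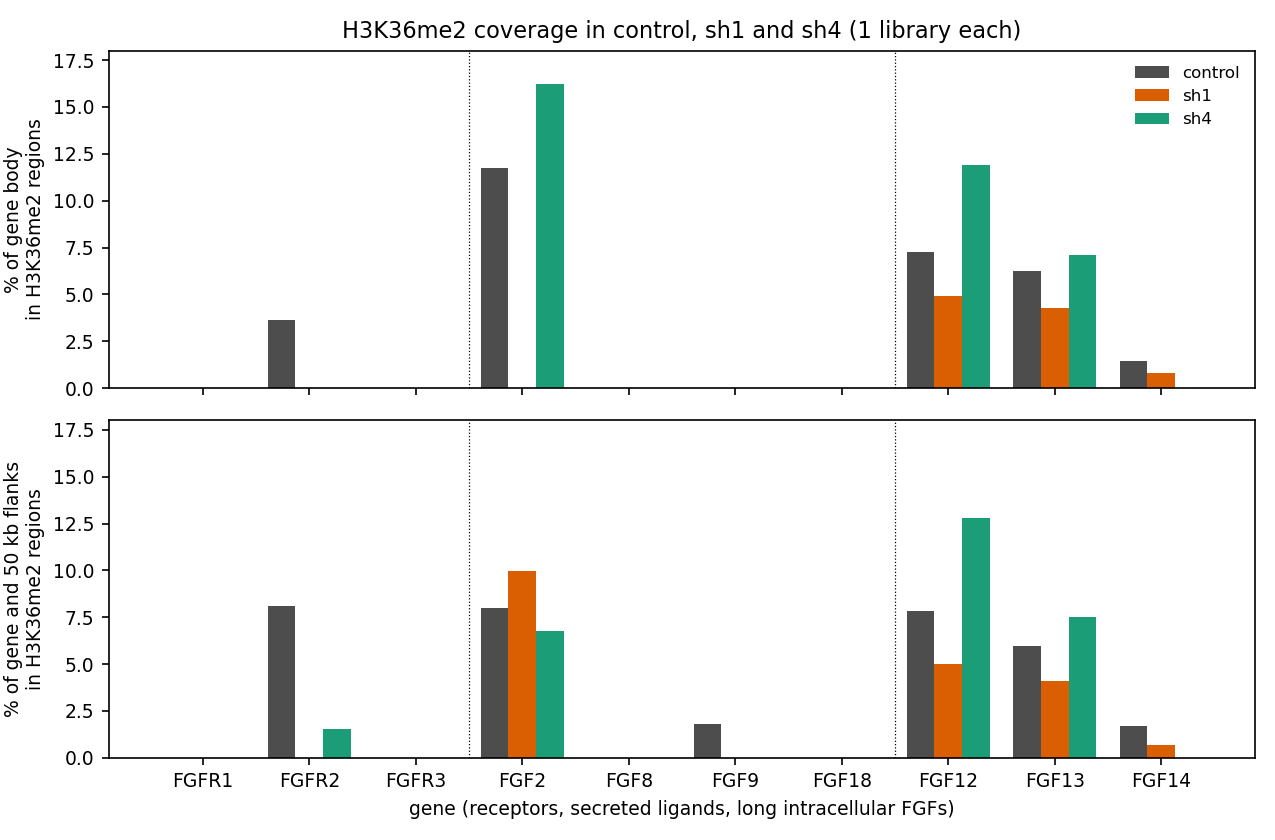
Percent of the gene body (upper panel) and of gene plus 50 kb flanks (lower panel) inside H3K36me2 regions, for each gene, in control, sh1 and sh4. Each bar is 1 library, so there is no error bar. Bars are absent at FGFR1, FGFR3, FGF8 and FGF18 in all 3 libraries. FGF12 and FGF13 have the order sh1, control, sh4 from low to high in both panels.

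FGF12 and FGF13 showed the same order of libraries. FGF12 was covered over gene and flanks for 7.82% in NC, 5.00% in sh1 and 12.8% in sh4, and its body for 7.28%, 4.93% and 11.9%. FGF13 was covered for 5.94%, 4.09% and 7.50%, and its body for 6.23%, 4.27% and 7.12%. In both genes sh1 was the lowest library and sh4 the highest. Chromosome-wide, the covered length on chromosome 3 in sh1 was 0.978 times and in sh4 1.01 times that of NC, and on chromosome X 0.847 times in sh1 and 0.846 times in sh4. Their part in these values was not tested. FGF14 was low throughout, with 1.69% in NC, 0.707% in sh1 and 0% in sh4, although the covered length of chromosome 13 was 1.07 times the control's in sh1 and 1.08 times in sh4.

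Set among the 771 genes of at least 300 kb, whose median body coverage was 3.70% in NC, 3.47% in sh1 and 3.81% in sh4, FGF12 and FGF13 lay above the median in every library and FGF14 below it. In NC, 597 of these genes had a lower body coverage than FGF12, 541 a lower one than FGF13 and 191 a lower one than FGF14. In sh1 the numbers were 465, 431 and 174, nearer the middle for FGF12 and FGF13. In sh4, 700 had a lower one than FGF12 and 554 a lower one than FGF13, and FGF14 was at 0.

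The order at FGF12 changed when regions of low fold were left out. Under that limit FGF12 was covered for 3.46% in NC, 4.19% in sh1 and 6.63% in sh4, so that it became higher in both hairpins. With the 10000 regions of highest fold per library the values were 3.46%, 4.19% and 4.13%. FGF13 kept sh1 below and sh4 above the control under both limits (1.85%, 1.74% and 4.95% under the first). FGF14 turned to 0.429%, 0.707% and 0% under both, above the control in sh1 and below it in sh4.

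**Figure D3:**
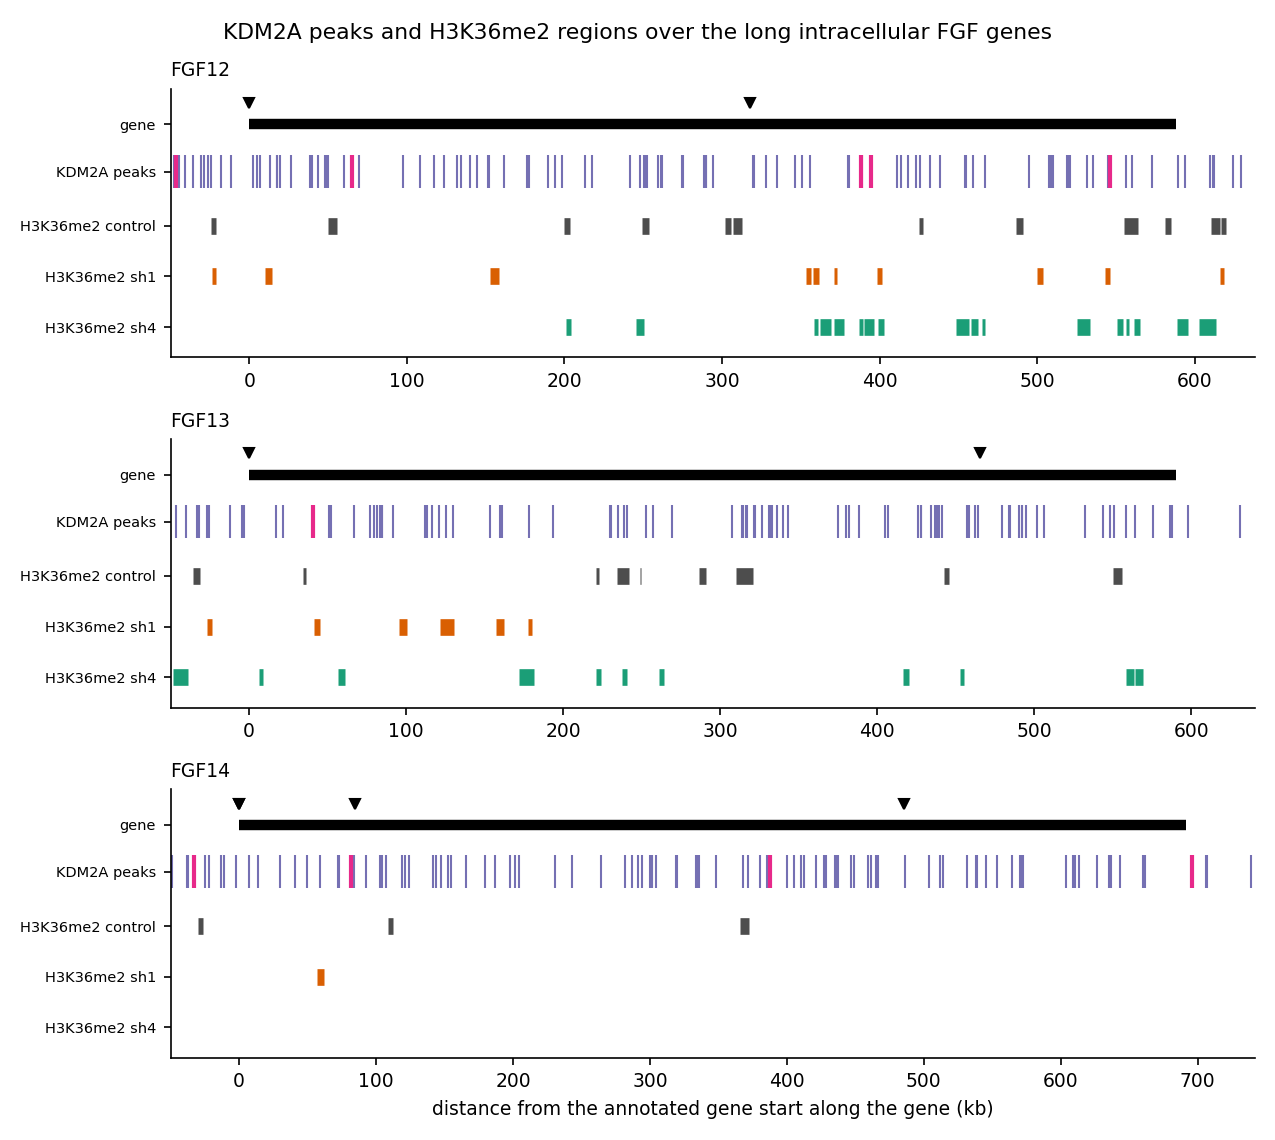
KDM2A peaks (1 control library; pink where the FDR was under 0.05, violet otherwise) and H3K36me2 regions in control, sh1 and sh4 along FGF12, FGF13 and FGF14 with 50 kb flanks. The horizontal axis is the distance from the annotated gene start in kb, the black bar the gene and triangles its listed starts. KDM2A peaks spread along the whole of each gene, while the H3K36me2 regions sit at mostly different places in the 3 libraries and FGF14 has 3, 1 and 0 of them.

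The stretches inside regions were partly shared between pairs of libraries. No base of any of the 10 loci lay in a region of all 3 libraries. Coverage was low in each library, with 4.99% of the long loci in NC, 3.14% in sh1 and 6.45% in sh4. Sharing over all genes is not given here, so neither this nor the shared lengths below set the FGF loci apart. At FGF12, 4.4 kb were shared by NC (53.8 kb covered) and sh1 (34.4 kb), 11 kb by NC and sh4 (88.2 kb), and 7.2 kb by sh1 and sh4. At FGF13, NC (41 kb) and sh1 (28.2 kb) shared 0 kb, NC and sh4 (51.8 kb) 5 kb, and sh1 and sh4 2.8 kb. At FGF14 no pair of libraries shared a base. At FGF2 the 7 kb shared by NC (13.8 kb) and sh4 (11.6 kb) were most of the sh4 coverage, and NC and sh1 (17.2 kb) shared 3.2 kb.

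Along FGF12, the widest body regions in NC were 8.6 kb with a fold of 1.48 (1.23 to 1.78), 6 kb with 1.49 (1.20 to 1.86) and 5.6 kb with 1.52 (1.23 to 1.88), lying 555, 307 and 50.1 kb from the start. In sh1 they were 5.6 kb with a fold of 1.57 (1.23 to 2.00), 4.2 kb with 1.94 (1.46 to 2.59) and 3.8 kb with 1.72 (1.29 to 2.31), at 153, 9.94 and 500.1 kb. In sh4 they were 8 kb with 1.39 (1.19 to 1.62), 7.8 kb with 1.53 (1.25 to 1.87) and 6.8 kb with 1.47 (1.20 to 1.82), at 449, 526 and 362 kb. Over all regions of the gene and flanks, 4 of the 12 in NC overlapped a region of sh4 and 2 one of sh1. The widest NC region was among those that overlapped sh4. These overlaps were not compared with those at other genes.

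One gap between neighbouring control regions of FGF12, chosen after its values were seen, held regions in both hairpins. A longer control gap of the same gene, from 55.7 to 199.5 kb from the start, held an sh1 region of 5.6 kb and none of sh4. The chosen gap ran from 313 to 425 kb from the start, a length of 113 kb without a control region by its definition. There sh1 had 4 regions covering 11.8 kb and sh4 had 6 covering 29.2 kb. The gap also held 2 of the 4 body KDM2A peaks with an FDR under 0.05, at chr3:192332663-192332828 (fold 3.79) and chr3:192339313-192339511 (fold 3.60). Both lay inside sh4 regions, the first in the region of highest fold that sh4 had at the 10 genes, chr3:192330801-192337200, with a fold of 2.27 (1.73 to 3.0). Over the 14 KDM2A peaks with an FDR under 0.05 at the 10 genes, 0 lay in a region of NC, 1 in one of sh1 and 2 in one of sh4, all at FGF12. The 2 in sh4 are those of the gap, where no control region was possible by its definition. Regions covered 7.82% of FGF12 and its flanks in NC, 5.00% in sh1 and 12.8% in sh4. The share of such peaks inside regions over all genes is not given here, so these counts do not set the family or a library apart. At the downstream end of FGF12 the KDM2A end peak lay inside the sh4 region chr3:192131801-192139000, of fold 1.65 (1.35 to 2.02).

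Along FGF13, the sh1 regions kept to the part near the start. All 5 body regions of sh1 lay between 41.2 and 180 kb from the start, while those of NC reached 556 kb and those of sh4 569 kb. The widest in NC were 10.8 kb with a fold of 1.37 (1.16 to 1.61), 7.6 kb with 1.48 (1.22 to 1.79) and 5.4 kb with 1.50 (1.19 to 1.89). In sh1 they were 8.6 kb with 1.59 (1.30 to 1.93), 5.2 kb with 1.84 (1.41 to 2.40) and 4.6 kb with 1.55 (1.22 to 1.97). In sh4 they were 9.2 kb with 1.85 (1.53 to 2.24), 5 kb with 1.45 (1.15 to 1.85) and 4.8 kb with 1.70 (1.33 to 2.19). The region of highest fold at the 10 genes was a narrow one in NC, chrX:138982001-138984200, with a fold of 3.12 (2.05 to 4.87) from 95 ChIP reads and 30 input reads. The sh4 list had a region over the same bases with a fold of 1.74 (1.28 to 2.36), and sh1 had none there.

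FGF14 had few regions for its length. In NC its body held 6.4 kb with a fold of 1.44 (1.16 to 1.79), 366 kb from the start, and 3.6 kb with 1.54 (1.17 to 2.04), 109 kb from the start, and its upstream flank 3.4 kb with 1.67 (1.24 to 2.26). In sh1 it held 1 region, 5.6 kb with a fold of 1.94 (1.47 to 2.58), 56.6 kb from the start. In sh4 the nearest region lay 81.6 kb upstream of the gene. The downstream end of FGF14 overlaps ITGBL1, an integrin-like gene, so peaks there cannot be given to either gene.

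FGF2 was the 1 secreted gene with H3K36me2 in its body. Its body was covered for 11.7% in NC, 0% in sh1 and 16.2% in sh4, by 1 region in NC (chr4:122843201-122851600, fold 1.43, 1.19 to 1.72) and 1 in sh4 (chr4:122838601-122850200, fold 1.58, 1.36 to 1.85) that shared 7 kb. In sh1 all 4 regions lay upstream, the nearest ending 6.08 kb before the gene and the region of highest fold 47.9 kb before it (2.11, 1.59 to 2.82). Gene and flanks together were covered for 8.0% in NC, 9.98% in sh1 and 6.76% in sh4, so the locus moved opposite to the body. With 20 kb flanks the values were 10.9%, 9.50% and 10.4%, and with 100 kb flanks 10.02%, 9.80% and 9.35%, lower in both hairpins each time. The covered length of chromosome 4 was 0.987 times the control's in sh1 and 1.23 times in sh4. The end of FGF2 overlaps NUDT6, its antisense neighbour, and the regions of the body lie outside that overlap.

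FGFR2 was the only receptor with regions. NC had 1 of 4.4 kb in the body, 28.7 kb from the start, with a fold of 1.50 (1.17 to 1.94), and 1 of 13.4 kb in the downstream flank with a fold of 1.30 (1.14 to 1.48), the widest at the 10 genes. In sh1 the nearest region lay 97.1 kb upstream, and sh4 had 1 of 3.4 kb at 10.7 kb upstream with a fold of 1.51 (1.17 to 1.95). Gene and flanks were covered for 8.09% in NC, 0% in sh1 and 1.54% in sh4. The covered length of chromosome 10 was also below the control's, 0.763 times in sh1 and 0.865 times in sh4, and its part was not tested. All FGFR2 regions had folds under 1.59, and with the limits on fold named above FGFR2 was at 0 in every library.

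FGF9 had a single region in the control, 2.4 kb in its low-coordinate flank, with a fold of 1.72 (1.24 to 2.41), and none in either hairpin, so its locus was covered for 1.80%, 0% and 0%. With 20 kb flanks it had none in any library, and with 100 kb flanks sh4 was the highest (1.03%, 0% and 1.71%). For the 4 genes without regions, the nearest one in NC lay 171 kb from FGFR1, 867 kb from FGFR3, 77.9 kb from FGF8 and 57.6 kb from FGF18. FGFR3 lies in the gene-dense end of chromosome 4, with LETM1 2.61 kb downstream and TACC3 48.1 kb upstream, and its nearest region was 1450 kb away in sh1 and 357 kb away in sh4. FGFR1 has NSD3, an enzyme that writes H3K36 methylation, 28.9 kb from its low-coordinate end, and FGF8 has NPM3, a histone chaperone, 0.956 kb from its high-coordinate end.

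**Figure D4:**
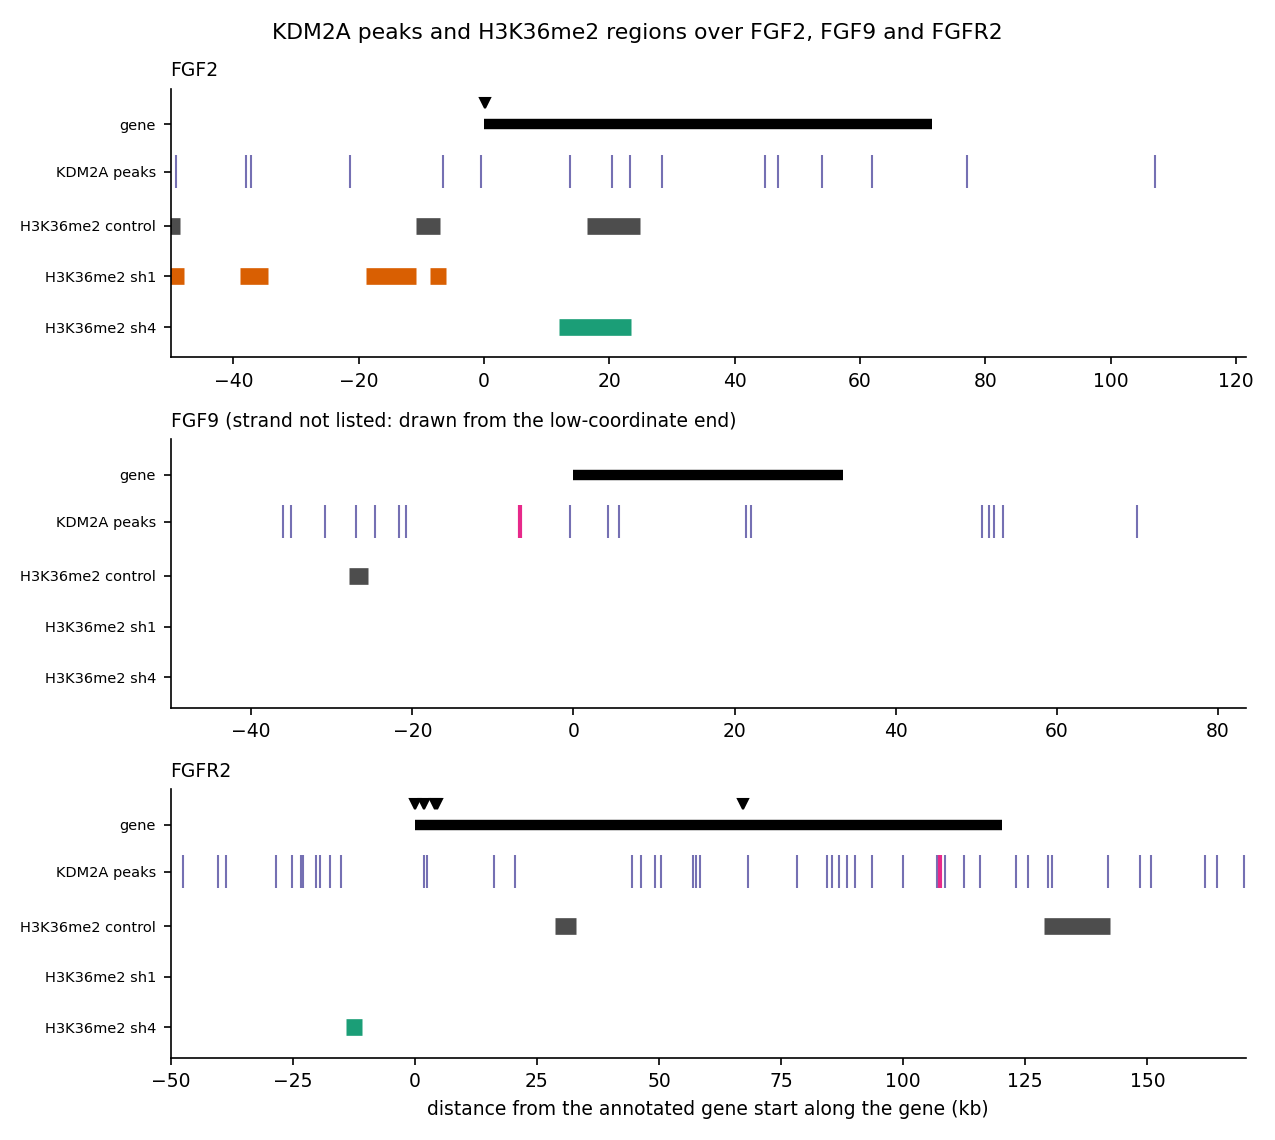
KDM2A peaks (1 control library; pink where the FDR was under 0.05) and H3K36me2 regions in control, sh1 and sh4 along FGF2, FGF9 and FGFR2 with 50 kb flanks. The horizontal axis is the distance in kb from the annotated start, or for FGF9 from the low-coordinate end because its strand was not listed. Triangles mark listed starts. The body region of FGF2 is present in control and sh4, and sh1 has 4 regions upstream only.

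Counted by direction over gene and 50 kb flanks, 3 of the 10 genes (FGFR2, FGF9 and FGF14) were lower than the control in both hairpins, as were 26.2% of all genes. A further 3 (FGF2, FGF12 and FGF13) moved in opposite directions, against 10.2% of all genes. None was higher in both, against 8.54%. Among genes of at least 300 kb, which FGF12 and FGF13 belong to, 31.1% moved in opposite directions, 32.9% were lower in both and 28.8% higher in both.

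KDM2A peaks and control H3K36me2 regions were set side by side at each gene that held a control region in the gene or its flanks. Of the KDM2A peaks of gene and flanks, 7.62% of 105 lay in NC regions at FGF12, where 7.82% of the length was covered, and 1.94% of 103 at FGF14, where 1.69% was. At FGF13 it was 10.6% of 94 peaks with 5.94% covered, and at FGF2 3 of 16 peaks (18.8%) with 8.0% covered. At FGFR2 it was 6.52% of 46 peaks with 8.09% covered, and at FGF9 1 of 18 peaks (5.56%) with 1.80% covered.

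The other genes of the pathway were taken as a list of 56: other FGF genes, co-receptors, adaptors, feedback genes and the sodium channels that intracellular FGFs bind. A KDM2A peak lay at an end of 45 of the 56 (84% of all genes), with an FDR under 0.05 at 4 (5.55%). Of the 15 other FGF genes, which are secreted ligands except for the intracellular FGF11, 14 had an end peak, and FGF16, a ligand of heart development, had the highest fold, 3.56 (FDR 0.0371). Of the 14 receptors and co-receptors 12 had one, and KLB, the co-receptor for endocrine FGFs, had the highest fold, 4.64 (FDR 0.000363). Among the heparan sulfate carriers SDC4 had a fold of 4.40 and SDC2 one of 3.35, both with an FDR under 0.05. These co-receptor folds exceed every end fold of the 10 genes described above.

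Further along the pathway, 8 of 10 adaptor genes had an end peak, led by GAB1, a docking protein (3.47, FDR 0.0644). Of 11 feedback and target genes 7 had one, led by DUSP6, the ERK phosphatase (2.55, FDR 0.346). Of 6 sodium channel genes 4 had one, led by SCN8A (3.20, FDR 0.0793). None of the end peaks in these 3 sublists had an FDR under 0.05, and no count here was tested against the background.

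In H3K36me2, 15 of the 56 bodies held a region in NC (20% of all genes), 14 in sh1 (16.2%) and 9 in sh4 (15.4%). Over gene and flanks 13 were lower than the control in both hairpins (26.2% of all genes), 9 higher in both (8.54%), 10 opposite (10.2%) and 23 at 0 in all libraries (45.6%). The highest body coverage in NC was at SPRY4, a feedback inhibitor of receptor signalling, with 76.6% in NC and 0% in sh1 and sh4. Next was SDC1, a heparan sulfate proteoglycan, with 52.7%, 0% and 0%. Both are short, 14.6 and 24.7 kb, and were named for their NC values, so lower hairpin values follow in part from the choice. Among the other FGF genes FGF7 had 4.88%, 0% and 0%, FGF1 0%, 10.2% and 0%, and FGF10 0%, 3.59% and 5.16%. GPC3, a glypican, had 12.7%, 10.7% and 7.96%. GAB1 had 9.15%, 9.30% and 0%, and SOS1, the exchange factor for RAS, 6.84%, 0% and 6.42%. The target ETV5 had 0%, 9.56% and 0% and the inhibitor SPRED2 0%, 6.38% and 4.62%.

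The sodium channel genes, the partners of the intracellular FGFs, were the sublist with the highest median coverage. Their median body coverage was 1.22% in NC, 2.36% in sh1 and 2.26% in sh4, while the median of every other sublist and of all genes was 0%. The 2085 protein-coding genes as long as these channel genes (102 to 222 kb) had medians of 2.03%, 0% and 0%. The channel median was thus lower than theirs in NC and higher in both hairpins, which was not tested. Of these 2085 genes 56.2%, 47.9% and 46.3% held a region, against 3 of 6 channel genes in each library. SCN2A had 5.89%, 7.72% and 13.9%, and SCN8A 2.44%, 6.14% and 4.51%, both higher than the control in each hairpin. FGF12 and FGF13 above were lower than the control in sh1 and higher in sh4. That difference between the channel genes and the FGF genes was not tested.

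Genes of like length with the most similar body coverage were found for each long gene by the smallest sum of absolute differences over the 3 libraries. Among 85 genes within 10% of the length of FGF12 these were CDK14 (7.00%, 5.76% and 9.64%), SORCS1 (6.45%, 7.57% and 12.4%) and B3GALT1 (8.68%, 5.99% and 10.2%), with sums of 3.37, 3.94 and 4.14 percentage points. Among 83 genes of the length of FGF13 they were UNC5D (5.85%, 4.85% and 7.45%), TMEM117 (4.21%, 4.31% and 6.93%) and PTPRK (3.73%, 4.49% and 7.61%), with sums of 1.30, 2.25 and 3.22. Among 63 genes of the length of FGF14 they were ADGRB3 (1.59%, 0.451% and 0%), FSTL4 (1.46%, 0% and 0.310%) and CSMD2 (1.84%, 0% and 0%), with sums of 0.504, 1.13 and 1.20. KDM2A peaks per 100 kb of body, which the choice did not use, were 11.7, 17.0 and 12.0 at the genes most like FGF12 (14.8), 14.1, 13.4 and 10.3 at those most like FGF13 (14.1), and 10.2, 27.0 and 39.9 at those most like FGF14 (13.0), each in the order named.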

How the data were processed

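The authors deposited 1 peak list per ChIP library, and nothing was recounted from reads. The submitters' processing notes list Bowtie 1.1.2, MACS2 and SICER without their roles, and the build GRCh38 (hg38). Deposited columns were a fold enrichment (a ratio of ChIP to background), p-values with FDR, for H3K36me2 a score, and for KDM2A a pileup (signal). The deposited FDR of H3K36me2 regions stayed under 1e-05, and that of KDM2A peaks reached 0.869. ChIP and input reads per H3K36me2 region were recovered from fold and p-value, for all but 3 to 6 regions per library, and 100% of those solved came out whole (tolerance 0.001 and 0.01). Fold intervals are exact binomial. H3K36me2 regions lie on a 200 bp grid and were shifted to 1-based positions. Gene positions came from RefSeq GRCh38.p14; exon and intron limits were not used here. Peaks were placed by midpoint in bodies and by overlap at ends. Scripts used Python 3.11.15, numpy 2.4.6, pandas 2.3.3 and scipy 1.17.1 and were tested on simulated data. The members and lists were chosen with earlier results of these data known. Named were all 10 genes, per pathway sublist the gene of highest end fold and of largest body coverage per library, and the 3 likest genes per long gene; SDC2, SDC4, the comparison by channel gene length and single peaks inside regions were chosen after values were seen. Alternatives changed windows, flanks, and FDR and fold limits.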

Additional observations from a re-analysis of the deposited data

Results flagged for a closer look

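At 3 genes the hairpins moved in opposite directions from the 1 control library they share, over gene and 50 kb flanks, and with 1 library per group the difference was not tested. FGF2 was 1.98 percentage points above the control in sh1, and in sh4 its difference was -1.24. FGF12 differed by -2.82 points in sh1 and by 5.00 in sh4. FGF13 differed by -1.85 points in sh1 and by 1.56 in sh4. Over all genes 10.2% moved in opposite directions, and 31.1% of genes of at least 300 kb.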

How the results depend on the processing

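No paired analysis was possible because each group held 1 library. A KDM2A end peak was found at 8 of the 10 genes within 2 kb, 6 of 10 within 1 kb (68.8% of all genes) and 10 of 10 within 5 kb (96.7%). With an FDR under 0.05 the count was 0 (5.55% of all genes), and among the 10% of peaks of highest fold also 0 (16.4%). With that 10%, the long to secreted ratio was 2.87 in bodies (0.482 to 116) and 1.70 with flanks (0.716 to 4.90). With the FDR limit the body ratio had no value, as secreted bodies held 0 peaks. For H3K36me2, regions above the control's median fold and the 10000 regions of highest fold each gave 2 bodies in NC (5 without a limit) and 2 loci in sh4 (4), 1 gene lower in both hairpins (FGF9; 16.1% and 18.3% of all genes) and 1 higher in both (FGF12; 7.66% and 5.49%). Long loci were then covered for 1.84% in NC under both limits, 2.14% and 2.01% in sh1, and 3.68% and 2.51% in sh4, so sh1 was no longer below the control. With 20 kb flanks the NC value was 4.50%, and with 100 kb flanks 5 genes were lower in both (32.9% of all genes). The cause of these moves was not tested. Read counts limit single folds, and no replicate shows how libraries of 1 group vary.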
